A study of Bos indicus with 55 samples.

Results

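Endometrium labelled contralateral, read here as the uterine horn opposite the conceptus, was represented by 3 of the 27 endometrial RNA-seq libraries. These were set against the 24 libraries labelled ipsilateral, read here as the horn that held the conceptus. The horn was taken from the cell type label of each library, which does not say what the side is relative to. All 27 were poly(A) RNA libraries of intercaruncular endometrium, the gland-bearing lining between the caruncles, from cattle on day 16 of pregnancy. Contralateral replicate 1 came from a cow with a female nuclear transfer conceptus, replicate 2 from a cow with a male in vivo conceptus and replicate 3 from a cow with a male nuclear transfer conceptus. The ipsilateral libraries were from 5 cows with in vivo, 10 with in vitro fertilised (IVF) and 9 with nuclear transfer conceptuses, so the IVF group has 0 contralateral libraries. Each of these ipsilateral groups held both female and male conceptuses. Conceptus sex was not a covariate of the main fit. In vivo conceptuses were conceived after artificial insemination, and nuclear transfer conceptuses were made by placing the nucleus of another cell in an egg. The series text gives the cows as Bos taurus indicus and the conceptuses as Bos taurus taurus, while the labels give Bos indicus for every sample. Every library carries its own number in the sample code, read here as the cow, and none of the cows was sampled in both horns. A difference between horns is thus also a difference between cows. The labels give neither the age or parity of the cows nor the reason for which the other horn was taken in these 3.

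In cattle the elongating conceptus lies at first in the horn beside the ovary that ovulated and then spreads into the opposite horn. Its trophectoderm secretes interferon tau, which acts on the endometrium to raise interferon-stimulated genes and to prevent the regression of the corpus luteum. The ipsilateral horn would also be the one nearer to the corpus luteum, the source of progesterone, if the conceptus lay on that side. The labels do not give the side of the corpus luteum. The table names its genes by Ensembl identifier, and a table of 34142 reference genes with symbols matched 0 of the 27607 identifiers. All 19 gene lists drawn up for this comparison, which include interferon-stimulated genes, progesterone-regulated genes, epithelial, stromal and myometrial markers and trophectoderm markers, therefore had 0 tested members. The labelled tissue and the mix of cell types could not be checked against their markers here. In bulk tissue, fewer cells of a type and less RNA per cell cannot be told apart.

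The contralateral libraries were sequenced to 6.52, 6.62 and 7.00 M counts, within the ipsilateral range of 5.53 to 9.82 M (median 6.54). The highest total belonged to ipsilateral replicate 20, from a cow with a male in vivo conceptus. A count of at least 1 was found for 19126, 18933 and 18783 genes in the contralateral libraries and for 18546 to 19080 in the ipsilateral ones. The 100 most abundant genes took 23.3, 22.5 and 24.98% of the contralateral counts and 19.8 to 24.5% of the ipsilateral counts. Neither the totals, the genes detected nor the share of the 100 most abundant genes passed a two-sided exact permutation test between horns (adjusted p = 0.865, 0.420 and 0.398 over 6 such values). That test placed the 3 contralateral labels in all 2925 possible ways, so its smallest p is 0.000342. Pearson correlations of log2 CPM (counts per M counts, with TMM scaling) across genes ran from 0.954 to 0.966 among contralateral libraries, from 0.901 to 0.967 between horns and from 0.901 to 0.971 among ipsilateral libraries. Nothing in the labels says how the libraries were batched. The sample code also carries a letter and a digit of unstated meaning. In contralateral replicates 1, 2 and 3 the letter was E, G and H and the digit 2, 3 and 2. The letters A to D were found on ipsilateral libraries alone, and the letter was not a covariate of any fit.

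On the first principal component of log2 CPM, which held 16.7% of the variance, the contralateral libraries scored -12.2, -16.9 and -49.9, all below the ipsilateral median of 4.35. Contralateral replicate 3 lay just beyond the lowest ipsilateral score of -48.7. The mean difference between horns was -29.6 (exact permutation test, p = 0.0561, adjusted p = 0.337). On the second component, with 12.6% of the variance, the scores were -18.0, -22.6 and -3.37 against an ipsilateral median of 6.11 (exact permutation test, p = 0.151, adjusted p = 0.398). On the third, the scores of 27.7, 0.044 and -4.47 lay on both sides of the ipsilateral median of -3.47 (exact permutation test, p = 0.397, adjusted p = 0.476). The 3 libraries thus lay on the same side of the ipsilateral median on the first and the second component, inside or next to the ipsilateral range.

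**Figure D1:**
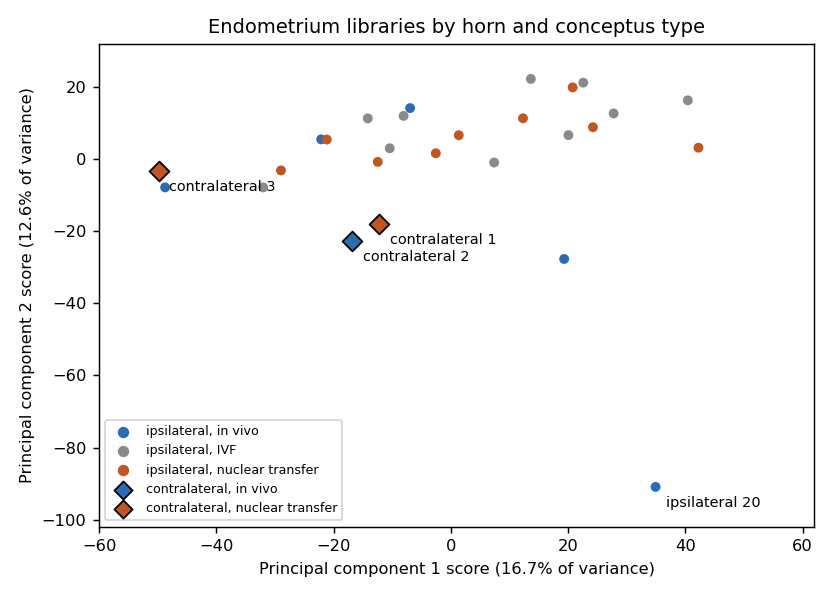
Scores of the 27 endometrium libraries on principal components 1 (x axis) and 2 (y axis) of log2 CPM, with circles for ipsilateral and outlined diamonds for contralateral libraries, coloured by conceptus type. The contralateral libraries sit at -12.2, -16.9 and -49.9 on component 1, and ipsilateral replicate 20 stands apart at -90.9 on component 2.

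With conceptus type as a covariate, 3 genes were higher in contralateral endometrium and 0 were lower, of 15911 tested by edgeR's quasi-likelihood test. The 3 calls are 0.0189% of the genes tested. All 3 are known by their identifier alone. At an unadjusted p under 0.05 there were 1163 genes (7.31%), 528 higher (3.32%) and 635 lower (3.99%). DESeq2 called 8 genes, 4 in each direction, and limma voom called 9, all higher. The calls were few and did not withstand every change of the samples. Leaving out contralateral replicate 1 gave 0 calls, and leaving out contralateral replicate 2 or 3 gave 1 each. Without ipsilateral replicate 2, 16, 18, 19, 23 or 24 the count was 0, without ipsilateral replicate 22 it was 1, and without ipsilateral replicate 20 it was 5. Without the IVF libraries, which hold no contralateral member, it was also 0.

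**Figure D2:**
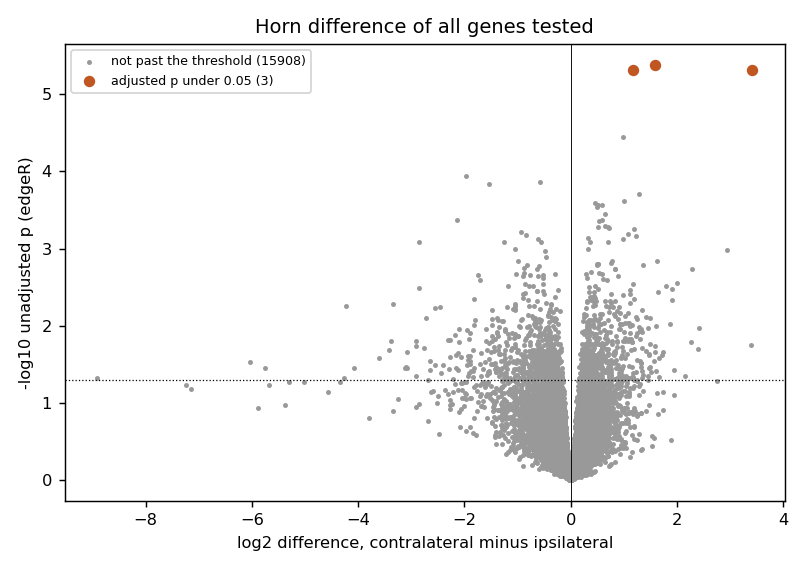
Each point is 1 of the 15911 genes tested, with the log2 difference of contralateral minus ipsilateral endometrium on the x axis and -log10 of the unadjusted edgeR p on the y axis, the dotted line marking p = 0.05. The 3 genes past an adjusted p of 0.05 (large points) all lie on the side higher in the contralateral horn.

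ENSBTAG00000016982 had the smallest p. It stood at 770, 458 and 513 CPM in contralateral replicates 1, 2 and 3. In the 24 ipsilateral libraries it ran from 95.2 CPM through a median of 203 to 340.5 CPM, the highest being ipsilateral replicate 22. All 3 contralateral libraries were above all 24 ipsilateral ones. The means were 580.5 ± 167 CPM (SD, n = 3) and 203 ± 67.8 CPM (SD, n = 24), and the gene rose by a log2 difference of 1.59 (edgeR adjusted p = 0.0260, SE 0.28), a 3.01-fold difference with a 95% interval of 1.023 to 2.156 in log2. As all 3 were above all 24, separation within each type was given and adds no support. By type, 770 and 513 CPM stood against 98.5 to 340.5 under nuclear transfer. Under in vivo conceptuses, 458 CPM stood against 104 to 307. Without contralateral replicate 1 the difference was 1.33 (SE 0.32, adjusted p = 0.750 by edgeR). Fitted to the nuclear transfer libraries alone, 2 against 9, it was 1.74 (SE 0.31, adjusted p = 0.119 by edgeR).

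ENSBTAG00000005471 was a much less abundant gene, read at 22.3, 10.7 and 3.17 CPM in contralateral replicates 1, 2 and 3. Ipsilateral values ran from 0 through a median of 0.722 to 5.62 CPM. Contralateral replicates 1 and 2 were above every ipsilateral library, while replicate 3 was passed by 3 ipsilateral libraries, all from cows with in vivo conceptuses. Against ipsilateral libraries of their own type all 3 were higher: 22.3 and 3.17 CPM stood against 0 to 2.35 under nuclear transfer, and 10.7 CPM against 1.49 to 5.62 under in vivo conceptuses. The means were 12.04 ± 9.64 CPM (SD, n = 3) and 1.49 ± 1.67 CPM (SD, n = 24), and the gene rose by a log2 difference of 3.42 (edgeR adjusted p = 0.0260, SE 0.60), 10.7-fold, with a 95% interval of 2.19 to 4.65. The size rested largely on contralateral replicate 1, and without it the difference was 1.77 (SE 0.64, adjusted p = 0.759 by edgeR). At least 22 counts stood behind each contralateral value. The mean log2 CPM over the ipsilateral libraries was 0.35, and under a filter of 1 CPM in 14 libraries the gene was not tested.

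The third gene called stood at 432, 386 and 284 CPM in the contralateral libraries. Its ipsilateral values ran from 86.3 through a median of 151 to 271 CPM, so the groups did not overlap, although contralateral replicate 3 was close to the highest ipsilateral library. The means were 367 ± 75.7 CPM (SD, n = 3) and 161 ± 46.6 CPM (SD, n = 24). It rose by a log2 difference of 1.18 (edgeR adjusted p = 0.0260, SE 0.21), 2.27-fold, with a 95% interval of 0.75 to 1.60. Under in vivo conceptuses 386 CPM stood against 153 to 271, and under nuclear transfer 432 and 284 CPM stood against 86.3 to 184. Without contralateral replicate 1 the difference was 0.93 (SE 0.24, adjusted p = 0.750 by edgeR).

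With all 27 libraries and conceptus type as covariate, edgeR called 0 genes lower in contralateral endometrium, with 635 at an unadjusted p under 0.05, while DESeq2 called 4 and limma voom 0. Without in vivo libraries edgeR called 1 lower. The 2 with the smallest p in that direction are given as values. ENSBTAG00000011236 was read at 0.595, 0.730 and 0.432 CPM in contralateral replicates 1, 2 and 3, from as few as 3 counts in a library. Ipsilateral libraries held 1.05 to 4.87 CPM with a median of 2.45, and the groups did not overlap. The fitted log2 difference was -1.97 (edgeR adjusted p = 0.331, SE 0.44), with a 95% interval of -2.86 to -1.07. ENSBTAG00000007686 was read at 9.37, 11.97 and 11.8 CPM against 12.3 to 19.4 CPM with a median of 16.1 in ipsilateral libraries. Its groups did not overlap either, but contralateral replicates 2 and 3 came within 1 CPM of the lowest ipsilateral library. The fitted log2 difference was -0.57 (edgeR adjusted p = 0.331, SE 0.13), with a 95% interval of -0.83 to -0.31. Both had an adjusted p above 0.05 in every alternative run, from 0.0645 to 1.00 for ENSBTAG00000011236 and from 0.0667 to 1.00 for ENSBTAG00000007686 by edgeR, DESeq2 or limma.

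**Figure D3:**
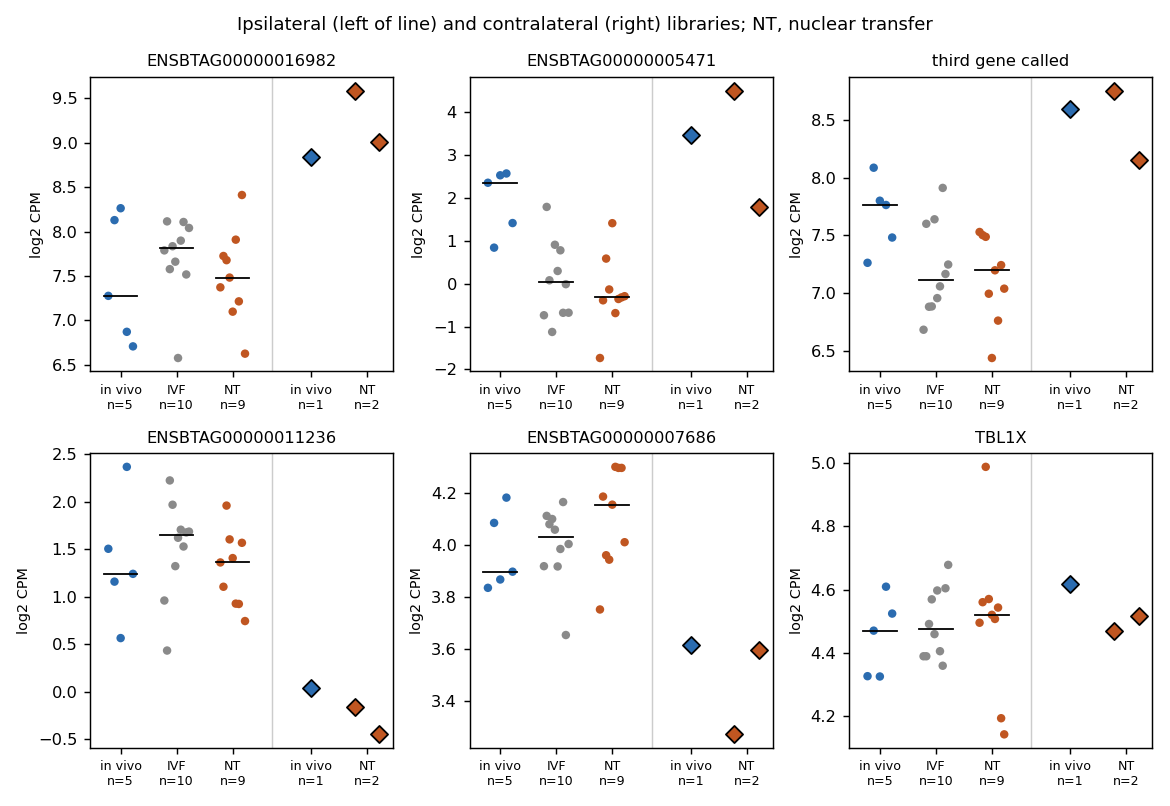
Log2 CPM (y axis) of 6 genes in each endometrium library, with ipsilateral libraries left of the line and contralateral libraries (diamonds) right of it, split by conceptus type, and short bars at ipsilateral medians. The contralateral libraries lie above the ipsilateral libraries of their own type for the 3 genes called, below them for ENSBTAG00000011236 and ENSBTAG00000007686, and within the range of all 24 ipsilateral libraries for TBL1X.

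TBL1X, which acts in corepressor complexes of nuclear receptors, is 1 of 12 genes that the table gives by symbol and the one of them that passed the filter on low counts. Most of the other symbols are Y-linked, and whether this entry also takes reads of a Y-linked copy is not stated. It stood at 21.9, 24.2 and 22.6 CPM in the contralateral libraries and at 17.4 to 31.4 CPM with a median of 22.3 in the ipsilateral ones. All 3 lay within the range of the 24, while replicate 2 was just above the 5 in vivo ipsilateral libraries, which reached 24.1 CPM. The means were 22.9 ± 1.22 CPM (SD, n = 3) and 22.3 ± 2.75 CPM (SD, n = 24). The fitted log2 difference was 0.04 (edgeR adjusted p = 0.962, SE 0.12), with a 95% interval of -0.20 to 0.28. Its sign turned with 3 of 16 alternatives, at up to -0.03. Of the Y-linked symbols, SRY, DDX3Y, USP9Y and EIF1AY had 0 counts in all 27 libraries, and in the pooled 20.1 M contralateral counts a count of 0 allows up to 0.149 CPM. ZFY had 2 counts in all, both in contralateral replicate 3, whose conceptus was male.

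Beyond the calls, 19 genes had all 3 contralateral values above all 24 ipsilateral values and 11 had all 3 below. These are 0.119 and 0.0691% of the genes tested, 0.189% together. The 19 had fitted log2 differences of 0.33 to 1.92 (median 0.72), and 2 of them are among the genes called. The 11 had differences of -4.22 to -0.24 (median -0.84), with 0 called. Without ipsilateral replicate 20 the counts were 35 and 23, and without the IVF libraries 35 and 33. With 1 contralateral library left out they ran from 70 to 94 higher and from 51 to 72 lower. Fewer libraries make separation easier, so a rise was set in advance, apart from changes of filter and scaling.

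Most genes differed little. The median log2 difference over all genes tested was -0.01 and the median absolute difference 0.15, beside a median SE of 0.205. The central 90% of genes lay between -0.69 and 0.52. Fitted differences above 1 were found for 173 genes and below -1 for 408. With each contralateral library left out in turn, 216 to 358 genes lay above 1 and 479 to 723 below -1. These fits set still fewer contralateral libraries against the same ipsilateral ones. They thus cannot separate the longer lower tail from the unequal group sizes, whose part in it was not tested. For a gene of typical precision, a difference of the size of 1 SE could not be told from the spread between cows.

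Set against the median of ipsilateral libraries of their own type, the contralateral libraries deviated to different extents. Replicate 1 had 535 genes more than 1 log2 unit above and 491 below that median, replicate 2 had 421 and 484, and replicate 3 had 509 and 1005. These are 6.45, 5.69 and 9.52% of the genes. A similar share was taken for each ipsilateral library against the other ipsilateral libraries of its type. It ran from 4.69 to 7.04% under nuclear transfer and from 6.02 to 20.2% under in vivo conceptuses, ipsilateral replicate 20 having the highest. Those medians hold 1 library fewer than the medians used for the contralateral libraries, and the effect of this on the shares was not tested. Contralateral replicate 3 thus deviated in more genes than any nuclear transfer ipsilateral library did, replicate 1 fell within their range, and replicate 2 was below the range of the in vivo ones. All 3 libraries were more than 1 log2 unit above the median of their type for 25 genes (0.157% of those tested) and more than 1 below for 20 (0.126%). Across genes, which are not independent replicates, the deviations correlated at r = 0.104 between replicates 1 and 2 and at r = 0.062 between replicates 2 and 3, pairs that share no ipsilateral median. Replicates 1 and 3 are set against the same nuclear transfer libraries, so their correlation is not given.

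**Figure D4:**
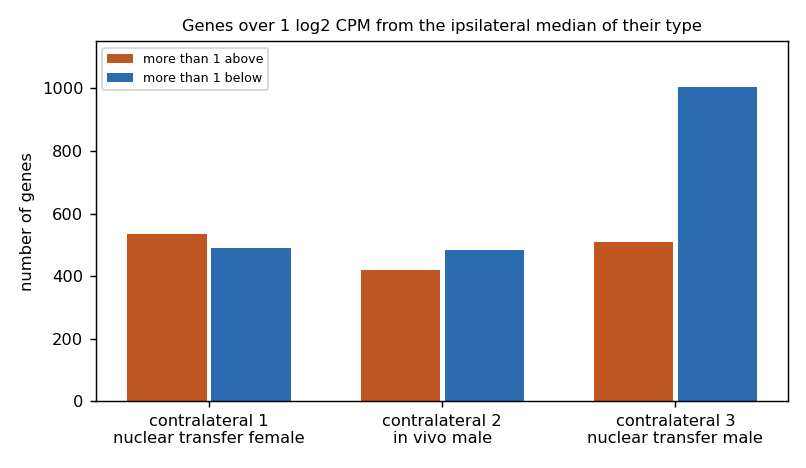
Number of genes (y axis) in each contralateral library that lay more than 1 log2 CPM above or below the median of the ipsilateral libraries of the same conceptus type. Replicate 3 has 1005 genes below, against 491 and 484 in replicates 1 and 2.

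Whether the horn difference depended on conceptus type was tested as the horn difference under nuclear transfer minus that under in vivo conceptuses, a term that rests on contralateral replicate 2 for the in vivo side. By edgeR 0 of 16763 genes passed, with 650 (3.88%) at an unadjusted p under 0.05. DESeq2 called 3 genes and limma voom 2. For the genes described above, the term was 0.49 (SE 0.66) for ENSBTAG00000016982, 2.68 (SE 1.37) for ENSBTAG00000005471, 0.42 (SE 0.48) for the third gene called, -0.31 (SE 0.89) for ENSBTAG00000011236, -0.31 (SE 0.26) for ENSBTAG00000007686 and -0.19 (SE 0.25) for TBL1X, each with an adjusted p = 1.00 by edgeR. The standard errors leave room for large differences between types, in particular for ENSBTAG00000005471.

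The conceptuses of the same cows gave a second readout, the miRNAs of the extracellular vesicles (EVs, membrane-bound particles) they shed in culture. The code number joined 27 of the 28 EV libraries to an endometrium library. No miRNA passed the test between EVs of cows sampled in the contralateral and in the ipsilateral horn: edgeR called 0 of 240, with 17 (7.08%) at an unadjusted p under 0.05, 15 of them lower (6.25%) and 2 higher (0.833%), and DESeq2 and limma voom called 0 each, with 20 and 22 at an unadjusted p under 0.05. The split moved with the scaling, to 8 lower and 3 higher with DESeq2-style size factors, 11 and 3 with upper quartile scaling, and 14 and 0 without scaling. The 3 EV libraries were shallow. They held 82.9, 39.3 and 119.9 k counts for the cows of contralateral replicates 1, 2 and 3, beside 41.4 to 603.6 k (median 121.7) in the others, that of replicate 2 being below all 24. miR-2887 and miR-2904, entries that overlap other small RNA classes, took 44.5, 25.2 and 55.2% of these counts and 4.11 to 76.3% of the others. The part of depth and of these entries in the differences below was not tested.

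miR-93, a member of the growth-associated miR-17 family, had the smallest p. It was read at 98.1, 0 and 75.8 CPM, from 7, 0 and 7 counts, in the EVs of the cows of contralateral replicates 1, 2 and 3. In the other 24 libraries it ran from 41.3 through a median of 281 to 670 CPM, and 1 of these lay at or below the highest of the 3. A count of 0 in the EVs of replicate 2 allows up to 44.5 CPM. The fitted log2 difference was -2.43 (edgeR adjusted p = 0.439, SE 0.76). miR-16b, of the miR-15 and miR-16 family that restrains the cell cycle, was read at 0, 44.5 and 32.5 CPM, from 0, 3 and 3 counts, against 39.1 to 449.5 CPM (median 168). Its fitted difference was -2.71 (SE 0.89, adjusted p = 0.439 by edgeR).

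miR-29b, of a family known to target collagen and other matrix transcripts, had 2, 0 and 0 counts in the 3 libraries and 0 to 1049 CPM (median 78.1) in the others. The fitted difference was -4.11 (SE 1.37, adjusted p = 0.439 by edgeR). It was -7.47 without contralateral replicate 1, which leaves 0 counts on that side, and -3.15 without ipsilateral replicate 1. miR-199a-5p, typical of mesenchymal cells, was read at 28.04, 237 and 64.9 CPM against 22.4 to 1278 CPM (median 476), with a difference of -2.49 (SE 0.92, adjusted p = 0.477 by edgeR). miR-23a was read at 435, 59.3 and 336 CPM against 175 to 2370 CPM (median 619), with a difference of -1.82 (SE 0.69, adjusted p = 0.477 by edgeR). For each of the 5, between 1 and 7 of the other 24 libraries lay at or below the highest of the 3, and none passed the test.

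**Figure D5:**
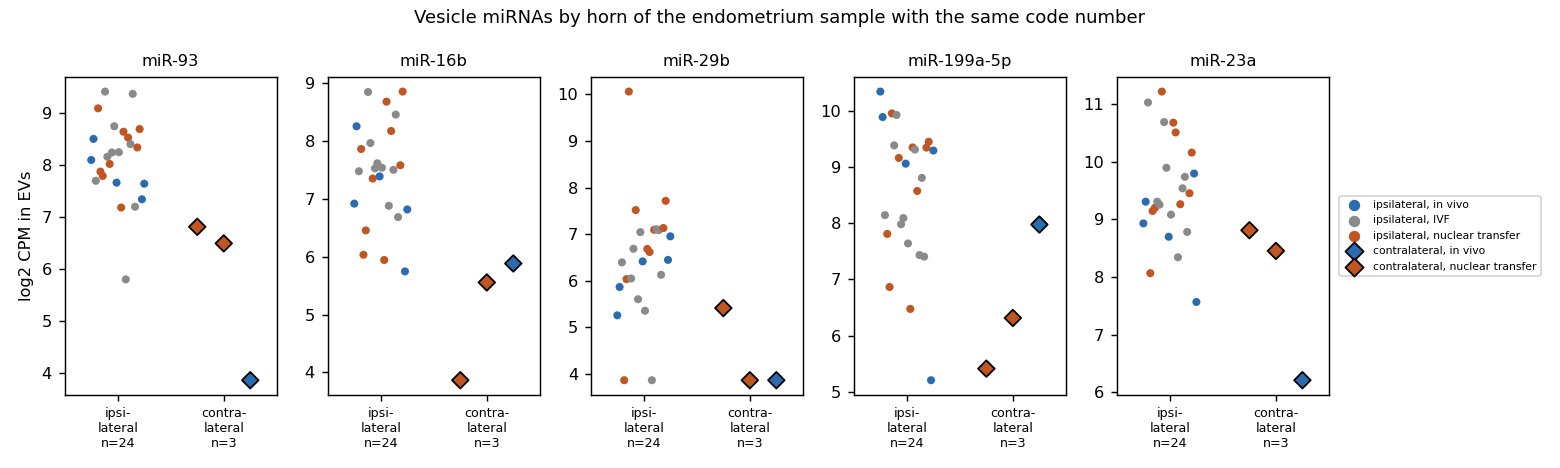
Log2 CPM (y axis) of 5 miRNAs in EVs, in the 24 libraries whose cow was sampled in the ipsilateral horn (circles) and the 3 whose cow was sampled in the contralateral horn (diamonds), coloured by conceptus type. The 3 diamonds lie low in each panel and overlap the circles in all 5.

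By family, the members tested had 0 calls in either direction in all 8 lists. The median log2 difference over all 240 miRNAs was -0.49 and 155 of them were negative (126 with DESeq2-style size factors), so list values are read beside these. The let-7 family, which accumulates as cells differentiate, had a median of -0.81 with 9 of 9 members negative, and let-7g stood at -1.06 (SE 0.58). The listed members of miR-29 and of miR-30 had a median of -1.09 with 8 of 8 negative, miR-30e-5p standing at -1.39 (SE 0.56). miR-29d-5p was tested but not listed, and stood at 0.39 (SE 0.76). The miR-200 family of epithelia had a median of -0.78 with 4 of 5 negative, and the miR-302 and miR-371 clusters of early embryonic cells a median of -0.66 with 5 of 5 negative. The miR-10, miR-99, miR-100 and miR-125 group had a median of -0.49 with 6 of 7 negative, and abundant trophoblast miRNAs a median of -0.49 with 8 of 10 negative. Among the 8 lists, medians above 0 were found for neural miRNAs, at 1.43 with 1 of 5 negative, and for entries that overlap other small RNA classes, at 0.27 with 2 of 5 negative. The 2 miRNAs higher at an unadjusted p under 0.05 by edgeR were in no list. They were miR-323 at 1.91 (SE 0.89, adjusted p = 0.6315 by edgeR) and miR-543 at 1.705 (SE 0.82, adjusted p = 0.671 by edgeR). The middle neural value was that of miR-1298 (SE 1.67), and miR-124a and miR-124b stood at 1.90 (SE 1.71) and 2.05 (SE 1.61). In the other 24 libraries both had 0 counts in 15, with means of 110.4 and 55.2 CPM. Whether these 2 entries share reads was not tested. Of the 3 libraries, that of contralateral replicate 2 alone held miR-124a and miR-124b, at 46 and 23 counts, and 2 of the other 24 had more, at up to 1281 and 640.4 CPM. The overall shift depended on the scaling, with a median over all miRNAs of -0.06 with DESeq2-style size factors, -0.26 with upper quartile scaling and -0.48 without scaling.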

How the data were processed

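The authors deposited endometrium values as estimated counts per gene and EV values as whole counts per miRNA, neither normalized. Of the endometrium values above 0, 85.2% were whole within 0.004. They were rounded before testing. The submitters' processing notes name ARS-UCD1.2 as genome and list STAR, featureCounts, Bowtie, cutadapt and DESeq2. Tool versions, annotation release and strand setting were not given in the sources used here. Per the labels' protocols, endometrium libraries were poly(A) selected with dUTP strand marking. The table holds 27619 genes, 27607 by Ensembl identifier and 12 by symbol.

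The test was edgeR 4.0.16 (R 4.3.3): TMM scaling, filterByExpr (minimum count 10, minimum total 15), a design of conceptus type and horn over all 27 libraries, and a two-sided quasi-likelihood test, adjusted after Benjamini-Hochberg over all genes at a threshold of 0.05. Signed differences are contralateral minus ipsilateral. Each SE is the log2 difference divided by the root of its F statistic. Log2 CPM used a prior count of 2. EV counts were fitted in the same way. Single values per library were compared by exact permutation. The scripts were tested on simulated data. Limits from a count of 0 use 3 counts and cover counting error alone.

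Alternatives were DESeq2 1.42.0, limma 3.58.1 (voom with quality weights), other scalings, filters, covariates and sample sets, and leaving out each library. The members and lists were chosen with earlier results of these data known. Named genes were, with edgeR's average log2 CPM over all 27 libraries at 1 or more, the 2 identifiers with the smallest p in each direction, TBL1X, the 5 miRNAs with the smallest p and up to 2 of each miRNA list. The third gene called falls outside that rule and was described after its values were seen. Replicate numbers in the titles run within conceptus type and sex and mark no shared animal. Nothing says whether libraries of a group are otherwise independent of a processing batch, so p-values measure the spread between these samples.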

Additional observations from a re-analysis of the deposited data

Results flagged for a closer look

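Gaps between the most extreme library and its neighbour were large for their group in 7 of 51 groups of 5, 9 or 10 ipsilateral libraries. Chance gives about 1 in 20 for independent groups, but the same libraries recur in these groups. In in vivo libraries the total of ipsilateral replicate 20 was 9.82 M counts, the next being 6.78. In IVF libraries ENSBTAG00000016982 stood at 95.2 CPM in ipsilateral replicate 11, below the next value of 183. ENSBTAG00000005471 stood at 3.15 CPM in ipsilateral replicate 5, above 1.57, and ENSBTAG00000007686 at 12.3 CPM in ipsilateral replicate 15, below 14.8. Ipsilateral replicate 14 scored 40.0 on principal component 3, the next IVF library scoring 8.18. In nuclear transfer libraries TBL1X stood at 31.4 CPM in ipsilateral replicate 13, above 23.4, and miR-29b at 1049 CPM in the EVs of ipsilateral replicate 1, above 195.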

How the results depend on the processing

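The count of 3 genes changed between horns was within 1.5 times in 10 of 16 alternatives. It was 1 with 6 type by sex groups, 0 without IVF libraries, 8 without in vivo libraries (7 higher, 1 lower), 8 by DESeq2 and 9 by limma voom, and with 1 library left out it ran from 0 to 5. Of the 3 genes, 3 were called again by DESeq2, 2 by limma voom, 2 without in vivo libraries and 0 in nuclear transfer libraries alone, where 3 other genes were called. With type and the digit of the sample code as covariates 2 were called, ENSBTAG00000016982 (adjusted p = 0.00245 by edgeR) and the third gene (adjusted p = 0.000792 by edgeR). ENSBTAG00000005471 was not (adjusted p = 0.217 by edgeR). With the title number as a replicate block the count was 0. These numbers pair no animals, and deviations of ipsilateral libraries with the same number had a median correlation of -0.04, beside -0.05 for other pairs. The differences of the 3 genes stayed above 0 wherever they were tested. ENSBTAG00000005471 was not tested under a filter of 1 CPM in 14 libraries. The type by horn count of 0 became 1 with 6 type by sex groups, 3 by DESeq2 and 2 by limma voom, and stayed 0 in 26 fits with 1 library left out. It could not be fitted without contralateral replicate 2. EV calls were 0 in 8 alternatives and 27 fits with 1 library left out. TBL1X stood at -0.0108 with 6 type by sex groups, -0.0325 in nuclear transfer libraries alone and -0.0335 without in vivo libraries, and with 1 library left out it ran from -0.0339 (without contralateral replicate 2) to 0.0854 (adjusted p = 0.916 to 0.999 by edgeR). The 30 genes whose groups do not overlap became 68 without IVF libraries and 30 to 162 with 1 library left out, a direction set by the smaller number of libraries. Components from the 500 most variable genes or from nuclear transfer libraries alone are new axes of arbitrary sign, so their signs cannot be compared with those above. With the 500 genes the difference was -17.5 on component 1 (exact permutation test, unadjusted p = 0.0274) and 3.47 on component 2. In nuclear transfer libraries alone the difference on component 3 was -0.15. With 1 contralateral library left out, the difference on the main component 1 ran from -36.7 (without contralateral replicate 1, exact permutation test, unadjusted p = 0.0431) to -17.9. That on component 2 ran from -22.1 to -12.5, on component 3 from -1.25 to 14.8 and in the library total from -0.0906 to 0.152 M counts. The causes were not tested. Without in vivo libraries the sole in vivo contralateral library is also gone, and without contralateral replicate 2 the horn difference rests on nuclear transfer cows. With 3 contralateral libraries, a median SE of 0.205 limits what can be called.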

Other observations

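Counts by abundance, with TMM scaling, are given as values, and the difference between abundance classes was not tested. Among the 3978 most abundant genes tested, 113 were higher and 227 lower in contralateral endometrium at an unadjusted p under 0.05, and 4 had a difference above 1 against 37 below -1. Among the 3978 least abundant, 147 were higher and 130 lower at an unadjusted p under 0.05, and 143 had a difference above 1 against 269 below -1. The balance over all genes moved with the scaling: 45.4% of the genes at an unadjusted p under 0.05 were higher with TMM, 45.2% with DESeq2-style size factors, 54.9% with upper quartile scaling and 53.9% without scaling. None of these counts is adjusted for multiple tests.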
